A study of Homo sapiens with 15 samples.

Results

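Antisense RNAs that carry the name of the gene beside which they lie were followed in LNCaP, a human prostate cancer line that responds to androgen, after androgen signalling was blocked. They were taken as the rows of the expression table whose symbol ends in -AS1, -AS2 or -AS3 and whose mean over all 15 libraries was at least 1 CPM (the deposited unit, read counts scaled by library sizes that the authors had rescaled). This gave 252 of the 316 rows with such a symbol, in a table of 17272 genes. They were thus selected on a measured value, the mean over both treatments, and not on a test of their difference. R1881 + DMSO gave 10 of the libraries in that mean and R1881 + enzalutamide 5. Just inside the limit lay ID2-AS1 with a mean of 1.00 CPM and TRG-AS1 with 1.01 CPM, and just outside lay SLC2A1-AS1 with 0.999 CPM and TMC3-AS1 with 0.998 CPM. Since libraries of both treatments enter the mean, 7 members had a mean under 1 CPM with R1881 + DMSO and 5 had one with R1881 + enzalutamide. The former include MANEA-AS1, C8orf34-AS1 and ID2-AS1, and the latter include POTEH-AS1, SOCS2-AS1, TNK2-AS1 and TRG-AS1. Such members passed the limit only through the treatment in which they were high, so their fold changes are not independent of the selection. A row for the host gene, the gene named before the suffix, was present for 222 members, 1 of them (KDM7A for JHDM1D-AS1) under its newer symbol. The pairs comprise 220 distinct host genes, because a few hosts such as PAXIP1 have more than 1 numbered antisense RNA.

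An antisense RNA is transcribed from the DNA strand opposite to that of its host gene. It may overlap the exons of the host, lie in an intron, or start back to back with the host from a shared promoter, in which case it is also called a divergent transcript. Many such RNAs are spliced and polyadenylated and are present at low levels in the nucleus or cytoplasm, and some are known to act on the locus of the host while the role of most is not known. Androgens both activate and repress genes of prostate cells, and enzalutamide counteracts them.

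In the study, cells were starved of androgen for 2 days in medium with charcoal-stripped serum and then treated for 22 h. The labels give 10 libraries of cells that received 1 nM R1881, a synthetic androgen, with the solvent DMSO, and 5 libraries of cells that received 1 nM R1881 with 2 µM enzalutamide, so all cells received the androgen and no group went without it. All libraries come from the single line LNCaP, and the p-values given here measure the spread between these libraries.

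Libraries of R1881 + DMSO held 15830745 to 24316740 counted reads, and those of R1881 + enzalutamide 21188661 to 25416052. Every prostate luminal marker reported here (KLK3, TMPRSS2, FOLH1, HOXB13, KRT8 and KRT18) had a row with reads in all libraries. Of the markers of other cell types, COL1A1 lay between 4.38 and 12.3 CPM over all libraries, and PTPRC, PECAM1, DCN, KRT5 and TP63 had no row in the table. The androgen-induced gene KLK3, which encodes prostate-specific antigen, lay between 1345 and 1868 CPM with R1881 + DMSO and between 124 and 145 CPM with enzalutamide, without overlap. Replicates 5 and 6 of R1881 + DMSO and replicate 2 of R1881 + enzalutamide deviated together from their group means (Pearson's r across genes between 0.46 and 0.67), and the counts that follow were also made without them.

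With enzalutamide, more of the antisense RNAs were higher than lower. In the limma fit over all 17046 genes with a mean of at least 0.5 CPM, 163 of the 252 members passed an adjusted p of 0.05, 123 of them higher and 40 lower with enzalutamide. The share called was close to that of all genes (64.7% of the members and 62.5% of all genes tested), but 48.8% of the members were called higher beside 29.8% of all genes, and 15.9% were called lower beside 32.7%. Of the members called, 75.5% were thus higher, whereas 47.7% of all genes called were higher. The median log2 fold change of the members was 0.19 (quartiles -0.05 and 0.42), that of the 219 host genes tested was -0.03, and that of all genes was -0.01, all on the log2(CPM + 0.5) scale, which understates the change of low genes. In the plot of cumulative fold changes the curve of the antisense RNAs lies to the right of the curves of the hosts and of all genes over most of the range. Higher calls also outnumbered lower ones with edgeR on the recovered reads (134 and 32 members, 166 in all, with 63.0% of all genes called in either direction), with DESeq2 (123 and 34, beside 30.5% and 31.4%), and against the R1881 + DMSO libraries 51 to 55 alone (123 and 32, beside 29.4% and 32.0%) or 71 to 75 alone (104 and 33, beside 28.0% and 30.7%). Without the 3 libraries that deviated together, 116 members were called higher and 38 lower (75.3% of those called were higher, beside 47.5% of all genes called). When each library was instead scaled to a total of 1000000, 83.9% of the members called and 60.8% of all genes called were higher.

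**Figure D1:**
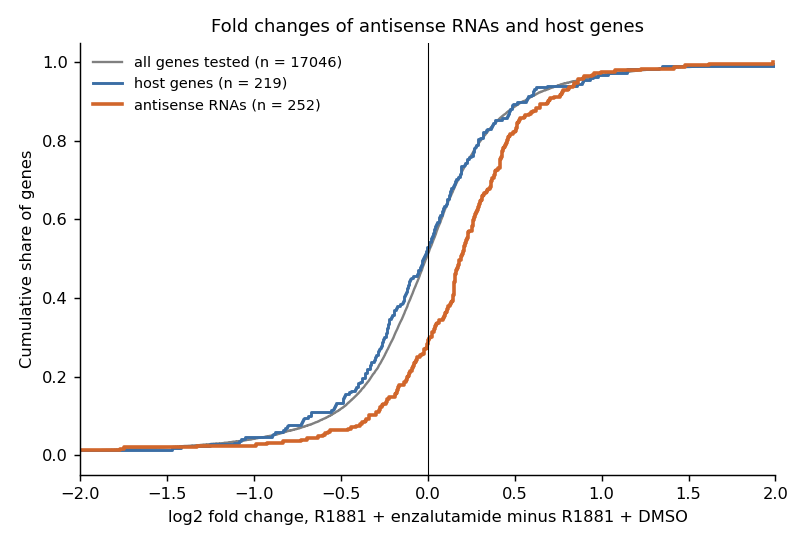
Cumulative share of genes (y axis, 0 to 1) against the log2 fold change with enzalutamide on the log2(CPM + 0.5) scale (x axis) for the 252 antisense RNAs, their 219 tested host genes and all 17046 genes tested. The curve of the antisense RNAs is shifted to the right, with a median of 0.19 beside -0.03 for the hosts and -0.01 for all genes.

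These changes were small for most members. On the log2(CPM + 0.5) scale, 6 of the members called were at least 2-fold higher and 6 at least 2-fold lower, beside 3.26% and 4.19% of all genes. By the ratio of the group means, which adds no pseudocount and was added after the data were seen, they were 12 and 9 (4.73% and 4.93% of all genes). All 5 enzalutamide libraries lay above all 10 R1881 + DMSO libraries for 70 members (27.8%, with 17.1% of all genes) and below them for 22 members (8.73%, with 20.1% of all genes), and for the other 160 members the groups overlapped. The spread between the R1881 + DMSO libraries themselves was smaller. Between the libraries numbered 51 to 55 and those numbered 71 to 75 in the labels, 2 members and 3.17% of all genes were called, and the median size of the log2 difference of a member was 0.10, compared with 0.28 between the treatments. That comparison had 5 libraries on each side, fewer than between the treatments, so the numbers called are not on equal terms. All enzalutamide libraries are numbered 81 to 85, a series of their own whose meaning is not given. A difference between number series and the treatment thus cannot be told apart.

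The excess of higher calls was read beside the level of the genes, because weakly expressed protein-coding genes leaned the same way. Among members with a mean of 1 to 2 CPM, 41.7% were called higher and 8.33% lower, and among protein-coding genes of that level 43.3% and 14.8%, whereas among all genes tested of that level they were 31.5% and 16.4%. From 2 to 5 CPM the shares were 43.8% and 18.8% for the members, 46.3% and 18.9% for protein-coding genes and 35.0% and 20.5% for all genes tested. At higher levels members and protein-coding genes moved apart, with 56.4% of the members and 38.8% of protein-coding genes called higher from 5 to 10 CPM, and 65.8% and 32.7% from 10 to 30 CPM. Above 30 CPM 7 members were called higher and 7 lower out of 19, while 24.6% of protein-coding genes were called higher and 47.6% lower. The division by level was added after the data were seen, and whether the level has a part in the excess was not tested.

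**Figure D2:**
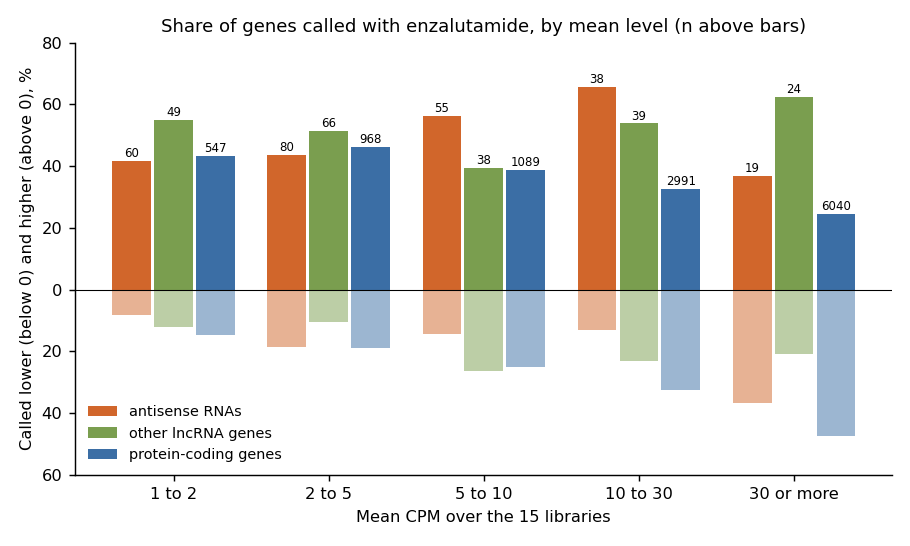
Percent of genes called higher (above 0) and lower (below 0) with enzalutamide, by mean level over the 15 libraries in CPM, for antisense RNAs, other lncRNA genes and protein-coding genes, with the number of genes above each bar. Below 5 CPM the bars of antisense RNAs and protein-coding genes reach similar heights, and from 10 to 30 CPM 65.8% of antisense RNAs and 32.7% of protein-coding genes were called higher.

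Other noncoding genes leaned upward too. Of 216 lncRNA genes outside the members with a mean of at least 1 CPM, 112 were called higher and 37 lower (median log2 fold change 0.22), and of 107 genes with a LINC symbol 58 were called higher and 14 lower. Related RNAs named after a host with another suffix (-AS without a number or -IT1) numbered 10, of which 6 were called higher and 1 lower. The RNA that fell was CTBP1-AS, which lay between 5.6 and 9.54 CPM with R1881 + DMSO and between 2.23 and 3.86 CPM with enzalutamide. The largest increase was that of HOXA11-AS, which rose from between 0.242 and 0.972 CPM to between 3.49 and 4.93 CPM, followed by HOXC13-AS with a log2 fold change of 1.67 and BDNF-AS with 1.10. HOXA11-AS had a mean of 0.498 CPM with R1881 + DMSO. It passed the limit of 1 CPM only through the enzalutamide libraries, so its increase is not independent of that limit.

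The antisense RNA with the lowest fold change was POTEH-AS1, which is annotated antisense to POTEH, a gene of the POTE ankyrin family that is transcribed in prostate, ovary and testis. With R1881 + DMSO it lay between 9.4 and 12.4 CPM (median 10.9), and with enzalutamide the 5 libraries gave 0.186, 0.279, 0.364, 0.314 and 0.392 CPM. No library of one treatment came near the other, and the mean was 35.8-fold lower with enzalutamide (log2 fold change -3.83, SE 0.081, adjusted p = 1.02e-19). A median of 226.5 reads stood behind the values with R1881 + DMSO and of 7 reads behind those with enzalutamide. POTEH had no row in the table, and since the POTE genes are near-identical copies, reads could have been shared among loci of the family. In GENCODE v44 the gene spans chr22:15699361-15703403 on the minus strand, and 138 bases of its exons overlap exons of POTEH.

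SOCS2-AS1 fell together with its host. It lies antisense to SOCS2, an inhibitor of cytokine and growth hormone signalling, at chr12:93542022-93571768 on the minus strand, where 277 bases of exon are shared with the host on the opposite strand. With R1881 + DMSO it lay between 2.69 and 6.04 CPM (median 4.74), and with enzalutamide at 0.419, 0.279, 0.227, 0.314 and 0.431 CPM. The groups were widely separated, with a 13.6-fold lower mean (log2 fold change -2.57, SE 0.14, adjusted p = 1.44e-12). SOCS2 itself went from between 38.9 and 46.9 CPM (median 42.7) to 5.31, 5.58, 5.91, 5.21 and 5.57 CPM, a 7.69-fold lower mean (log2 fold change -2.83, SE 0.051). The log2 ratio of antisense RNA to host was -3.12 with R1881 + DMSO and -2.86 with enzalutamide, and the difference of 0.26 did not pass (two-sided exact permutation test, p = 0.139). This direction depended on the pseudocount of 0.5, which is larger than the values of SOCS2-AS1 with enzalutamide. With a pseudocount of 0.1, chosen for the ratio after the data were seen, the difference was -0.48 (exact permutation p = 0.0323), and edgeR gave log2 fold changes of -3.69 for SOCS2-AS1 and -2.90 for SOCS2.

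TNK2-AS1 and FAM13A-AS1 fell further than their hosts. TNK2-AS1 is antisense to TNK2, a non-receptor tyrosine kinase. It lay between 2.68 and 4.4 CPM (median 3.61) with R1881 + DMSO and at 0.465, 0.233, 0.546, 0.584 and 0.314 CPM with enzalutamide. All 5 enzalutamide libraries were below the others (log2 fold change -2.14, SE 0.12, adjusted p = 1.31e-12), whereas the libraries of TNK2 overlapped, between 19.3 and 42.4 CPM (median 23.4) with R1881 + DMSO and at 10.9, 21.8, 15.2, 13.2 and 15.4 CPM with enzalutamide (log2 fold change -0.72). The highest values of TNK2 in each group were those of R1881 + DMSO replicate 6 and enzalutamide replicate 2, which belong to the libraries that deviated together. The log2 ratio within the pair fell by 1.42 and its groups did not overlap (exact permutation p = 0.000333, the smallest that this design can give). Members with the lowest and highest fold changes were picked by their values in these same libraries. Ratio tests of their pairs, here and below, are therefore descriptive, and a separation of the ratios can follow from the selection.

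FAM13A-AS1, antisense to FAM13A, lay between 5.44 and 8.82 CPM (median 6.87) with R1881 + DMSO and at 1.91, 2.05, 1.23, 1.57 and 1.65 CPM with enzalutamide. The groups did not overlap (log2 fold change -1.77, SE 0.11, adjusted p = 1.26e-11), nor did those of FAM13A, which fell by a factor of 1.61 (log2 fold change -0.67). The log2 ratio of the pair fell by 1.10 (exact permutation p = 0.000333).

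In other pairs the host fell further than the antisense RNA. LIFR, the receptor of leukaemia inhibitory factor, lay between 237 and 302 CPM (median 279) with R1881 + DMSO and at 36.2, 33.6, 34.6, 38.9 and 36.4 CPM with enzalutamide, a 7.67-fold lower mean. LIFR-AS1 lay between 5.89 and 8.3 CPM (median 6.65) and at 2.65, 3.07, 4.05, 3.64 and 3.69 CPM, a 2.02-fold lower mean (log2 fold change -0.92, SE 0.094, adjusted p = 2.87e-08). Neither row had overlapping groups, and the log2 ratio of antisense RNA to host rose by 2.00 (exact permutation p = 0.000333). IDH1-AS1, antisense to the gene of cytosolic isocitrate dehydrogenase, lay between 2.21 and 5.01 CPM (median 3.38) and at 1.77, 1.72, 2.09, 1.3 and 1.65 CPM (log2 fold change -0.83), while IDH1 fell by a factor of 2.68 (log2 fold change -1.42). The libraries of the treatments overlapped in the ratio of this pair, whose difference was 0.59 (exact permutation p = 0.003).

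The remaining members among the 10 lowest were C1QTNF9B-AS1, TRG-AS1, ST20-AS1 and SLC26A4-AS1. C1QTNF9B-AS1 is the older name of PCOTH, a gene described in prostate, and lay between 8.4 and 14 CPM (median 10.9) with R1881 + DMSO and at 2.42, 2.42, 3.09, 3.23 and 3.65 CPM with enzalutamide (log2 fold change -1.75, SE 0.10). TRG-AS1 comes from the T cell receptor gamma locus, part of which is known to be transcribed in prostate epithelium, and lay between 0.945 and 2.16 CPM (median 1.27) and at 0.372, 0.093, 0.182, 0.404 and 0.196 CPM (log2 fold change -1.33, SE 0.15). It was also one of the members nearest to the limit of 1 CPM. ST20-AS1 lay between 6.98 and 9.72 CPM (median 8.34) and at 3.82, 3.91, 3.55, 4.31 and 4.31 CPM, with a log2 fold change of -0.99 beside -0.38 for ST20. SLC26A4-AS1, antisense to the gene of the anion exchanger pendrin, lay between 1.59 and 2.61 CPM (median 2.29) and at 1.4, 0.884, 1.23, 1.08 and 1.14 CPM (log2 fold change -0.73). For all 4 the groups did not overlap, and all passed the test, the largest adjusted p being that of SLC26A4-AS1 (2.11e-06).

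**Figure D3:**
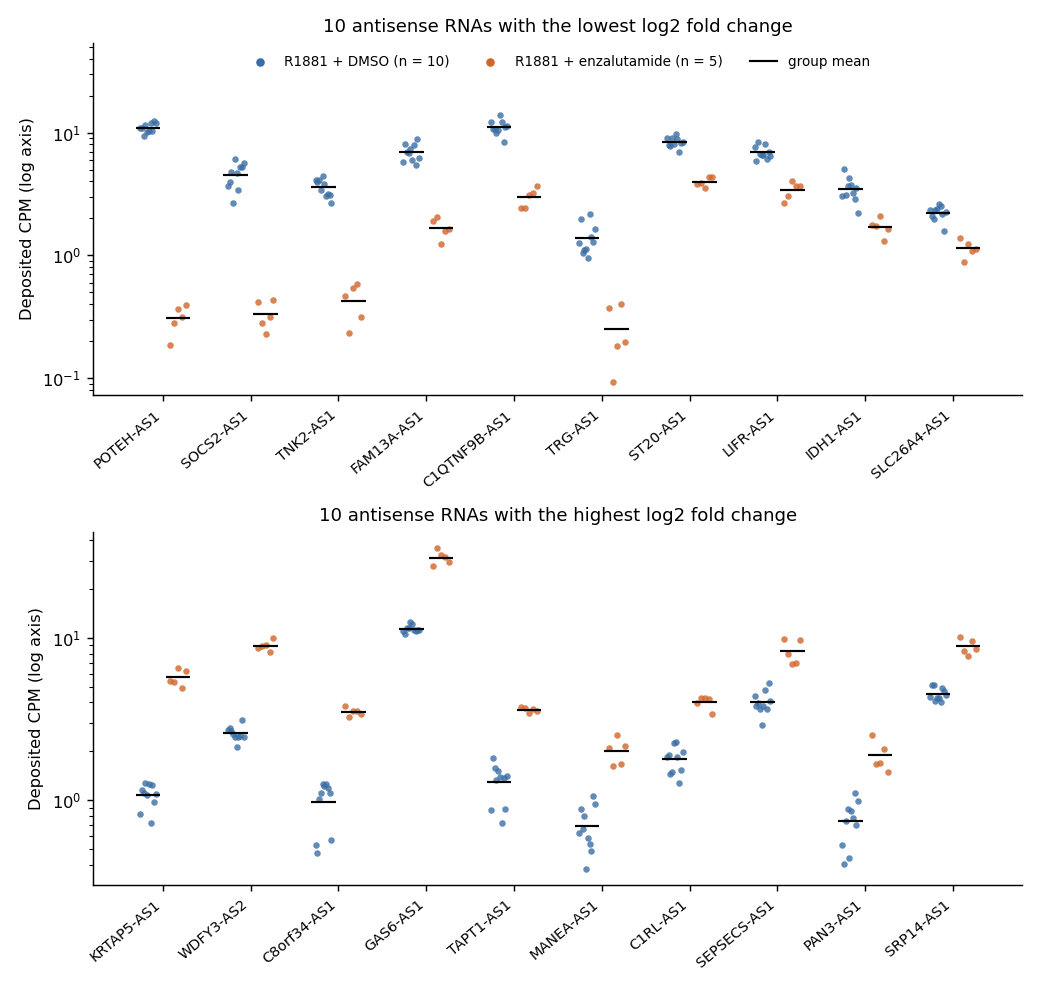
Deposited CPM (log axis) in each of the 10 R1881 + DMSO and 5 R1881 + enzalutamide libraries for the 10 antisense RNAs with the lowest (top) and the 10 with the highest (bottom) log2 fold change among those called. Points are libraries and bars are group means, and in each of the 20 RNAs shown the libraries of one treatment lie wholly above those of the other, by the widest margin for POTEH-AS1.

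Promoter windows of POTEH-AS1 and TNK2-AS1, 2 of the 3 members that fell most, are shown as examples of the sequence at which these RNAs start. The windows run from 250 bases before to 50 bases after the RefSeq start (assembly GRCh38.p14) and are written 5′ to 3′ along the strand of the antisense RNA. Capitals mark, on either strand, the androgen response half-site AGAACA, the Sp1 box GGGCGG, the box spelled CCAAT, the TATA box spelled TATAAA and the ETS motif CCGGAAG. A match on the other strand appears as the reverse complement of these letters. The POTEH-AS1 window, chr22:15703305-15703604 on the minus strand, holds 3 matches to the androgen response half-site and 1 CCAAT box, and the TNK2-AS1 window, chr3:195907826-195908125 on the plus strand, holds 2 Sp1 boxes. A match of these letters is a description of the window and not a binding site.
POTEH-AS1: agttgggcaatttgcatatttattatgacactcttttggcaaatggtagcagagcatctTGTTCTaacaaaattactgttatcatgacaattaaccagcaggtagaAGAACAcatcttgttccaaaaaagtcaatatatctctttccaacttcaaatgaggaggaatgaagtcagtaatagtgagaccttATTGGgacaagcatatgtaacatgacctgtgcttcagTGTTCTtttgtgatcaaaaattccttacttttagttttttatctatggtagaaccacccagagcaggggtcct
TNK2-AS1: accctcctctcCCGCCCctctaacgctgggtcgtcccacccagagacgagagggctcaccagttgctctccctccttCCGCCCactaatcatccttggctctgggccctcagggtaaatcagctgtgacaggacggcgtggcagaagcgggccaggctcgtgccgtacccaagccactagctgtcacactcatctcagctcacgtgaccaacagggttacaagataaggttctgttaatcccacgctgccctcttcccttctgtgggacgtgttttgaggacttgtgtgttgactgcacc

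Among 200 members with a RefSeq promoter window, 6.5% held AGAACA on either strand, compared with 14.8% of all 35116 windows in the table, which has several windows for some genes. GGGCGG was present in 67.5% of the members' windows and 45.0% of all windows, CCGGAAG in 17.5% and 10.3%, CCAAT in 31.0% and 34.6%, and TATAAA in 5.0% and 11.5%.

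KRTAP5-AS1 had the highest fold change. It spans chr11:1571353-1599184 on the plus strand, within the cluster of genes for hair keratin-associated proteins. With R1881 + DMSO it lay between 0.719 and 1.28 CPM (median 1.09), and with enzalutamide at 5.4, 5.35, 6.55, 4.94 and 6.27 CPM. Every enzalutamide library was well above every other library, with a 5.33-fold higher mean (log2 fold change 1.99, SE 0.10, adjusted p = 4.07e-13). No single host row could be assigned, because the name refers to a family.

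WDFY3-AS2 and GAS6-AS1 rose more than their hosts. WDFY3-AS2, antisense to WDFY3, whose protein takes part in the autophagy of protein aggregates, lay between 2.12 and 3.13 CPM (median 2.52) with R1881 + DMSO and at 8.61, 8.88, 9.01, 8.22 and 9.96 CPM with enzalutamide. The mean was 3.46-fold higher (log2 fold change 1.62, SE 0.078, adjusted p = 1.45e-13), that of WDFY3 was 1.41-fold higher, and the log2 ratio of the pair rose by 1.13. GAS6-AS1 lies antisense to GAS6, the ligand of the TYRO3, AXL and MERTK receptor kinases. It lay between 10.6 and 12.5 CPM (median 11.2) with R1881 + DMSO and at 27.6, 35.8, 32.3, 31.4 and 29.2 CPM with enzalutamide (log2 fold change 1.41, SE 0.058, adjusted p = 9.26e-15). GAS6 overlapped between the treatments, between 5.18 and 9.36 CPM (median 5.59) and at 7.03, 9.81, 7.28, 7.73 and 8.43 CPM (log2 fold change 0.39, adjusted p = 0.00649 by limma, and 0.11 against the R1881 + DMSO libraries 71 to 75 alone). In both pairs the ratios did not overlap (exact permutation p = 0.000333 in each).

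Several further antisense RNAs rose with a host that also rose. TAPT1-AS1 lay between 0.719 and 1.83 CPM (median 1.38) and at 3.72, 3.67, 3.46, 3.64 and 3.53 CPM, a 2.8-fold higher mean, while TAPT1 was 1.92-fold higher. C8orf34-AS1 lay between 0.474 and 1.26 CPM (median 1.1) and at 3.82, 3.26, 3.55, 3.55 and 3.37 CPM (3.61-fold), and C8orf34, at under 1 CPM with R1881 + DMSO, rose 3.43-fold. The mean of C8orf34-AS1 with R1881 + DMSO was also under 1 CPM. It thus became a member only through the enzalutamide libraries, and its rise is not independent of the selection. PAN3-AS1 starts beside PAN3, a subunit of a deadenylase that shortens poly(A) tails. It rose 2.53-fold and PAN3 1.53-fold. SEPSECS-AS1 starts beside SEPSECS, the enzyme that completes selenocysteine on its transfer RNA, and rose 2.06-fold while SEPSECS rose 1.44-fold. Within these 4 pairs the log2 ratio overlapped between the treatments, with differences of 0.29, 0.33, 0.34 and 0.44 and exact permutation p of 0.14, 0.102, 0.0363 and 0.00366. These p are not adjusted for the 47 pairs examined. With a pseudocount of 0.1 the differences were 0.52 for TAPT1-AS1, 0.20 for C8orf34-AS1, 0.65 for PAN3-AS1 and 0.50 for SEPSECS-AS1. The exact permutation p were then 0.0303, 0.511, 0.00866 and 0.002, and each ratio still overlapped between the treatments.

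The last members of the 10 highest rose beside hosts that moved little. C1RL-AS1 lay between 1.28 and 2.3 CPM (median 1.85) and at 3.96, 4.28, 4.28, 4.22 and 3.41 CPM, with a log2 fold change of 0.99 beside 0.12 for C1RL, a complement protease, and the host lost its call without enzalutamide replicate 5 (0.10, limma adjusted p = 0.058). SRP14-AS1 lay between 4.01 and 5.14 CPM (median 4.39) and at 10.1, 8.33, 7.78, 9.52 and 8.55 CPM (log2 fold change 0.90). Its host SRP14, a protein of the signal recognition particle, lay between 349.6 and 387 CPM (median 373) and at 377, 369, 397, 378 and 376 CPM (log2 fold change 0.03, adjusted p = 0.429). In both pairs the log2 ratio rose without overlap between the treatments, by 0.88 and 0.87 (exact permutation p = 0.000333 in each).

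The members with the highest mean CPM, a ranking that does not account for length, changed little. LRRC75A-AS1, now named SNHG29 and known as a host of small nucleolar RNAs, lay between 691 and 808 CPM (median 736) with R1881 + DMSO and at 929, 885, 924, 832 and 888 CPM with enzalutamide (log2 fold change 0.26, SE 0.038, adjusted p = 4.14e-06). Its groups did not overlap. OIP5-AS1, a conserved cytoplasmic lncRNA, lay between 176 and 206 CPM (median 203) and at 172, 164, 171, 185 and 182 CPM (log2 fold change -0.18, adjusted p = 0.00125), so that its groups overlapped. It kept its direction but not its call when library totals were set to 1000000 (-0.084, adjusted p = 0.074). FGD5-AS1 lay between 148 and 182 CPM (median 172) and at 161, 149, 161, 164 and 152 CPM (log2 fold change -0.11, limma adjusted p = 0.0445), and this call was lost in 19 of 28 alternatives.

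Of the other members among the 10 with the highest mean CPM, MMP24-AS1 and ST8SIA6-AS1 rose, with log2 fold changes of 0.42 and 0.17 and no overlap between the groups. ZNF667-AS1 and WAC-AS1 did not pass the test, with log2 fold changes of -0.025 (limma adjusted p = 0.533) and 0.015 (adjusted p = 0.817). FAM83H-AS1, which in GENCODE v44 carries the name of the protein-coding gene IQANK1, had a log2 fold change of -0.18, with the call lost when library totals were set to 1000000 (-0.087, adjusted p = 0.11). It was also called between the libraries 71 to 75 and 51 to 55 of the same treatment, with a log2 difference of 0.16.

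Per kilobase of annotated exon, levels could be compared between genes for 245 members. The median level with R1881 + DMSO was 1.02 CPM per kilobase, from 0.044 to 83.0, the latter that of LRRC75A-AS1. FGD5-AS1 followed with 28.1 ± 1.94 (SD, n = 10) and then NCBP2-AS2 with 22.5 ± 1.08. NCBP2-AS2 is one of 4 members that GENCODE v44 lists as protein-coding, with FAM83H-AS1, MMP24-AS1 and TOPORS-AS1, while 236 were listed as lncRNA. NCBP2-AS2 and TOPORS-AS1 were chosen after their values were seen. In 176 of 215 pairs the antisense RNA was below its host per kilobase, and the median host was 6.21-fold higher. LRRC75A-AS1 was among the 39 exceptions, since LRRC75A stood at 0.28 CPM per kilobase.

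Against their hosts, the antisense RNAs divided in the following way. Of 221 pairs in which both rows were tested, 57 moved in the same direction (35 both higher and 22 both lower) and 47 in opposite directions, 39 of these with the antisense RNA higher and the host lower and 8 the other way round. Of all members 48.8% were called higher and 15.9% lower, and of the hosts tested 30.6% and 39.7%. By these rates alone, the first arrangement is expected more often than its reverse, and a departure from them was not tested. In 87 pairs one row was called and in 30 neither. Antisense RNAs were called higher in 44.3% of the 88 pairs whose host fell, in 52.2% of the 67 whose host rose and in 48.5% of the 66 whose host was not called. They were called lower in 25% of the pairs whose host fell, 11.9% of those whose host rose and 6.06% of those whose host was not called. The log2 fold change of the antisense RNA was above that of the host in 154 of the 221 pairs, with a median difference of 0.30. Across the 221 pairs, which share libraries and are not independent replicates, Spearman's rho between the fold changes was 0.25 and Pearson's r 0.39.

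**Figure D4:**
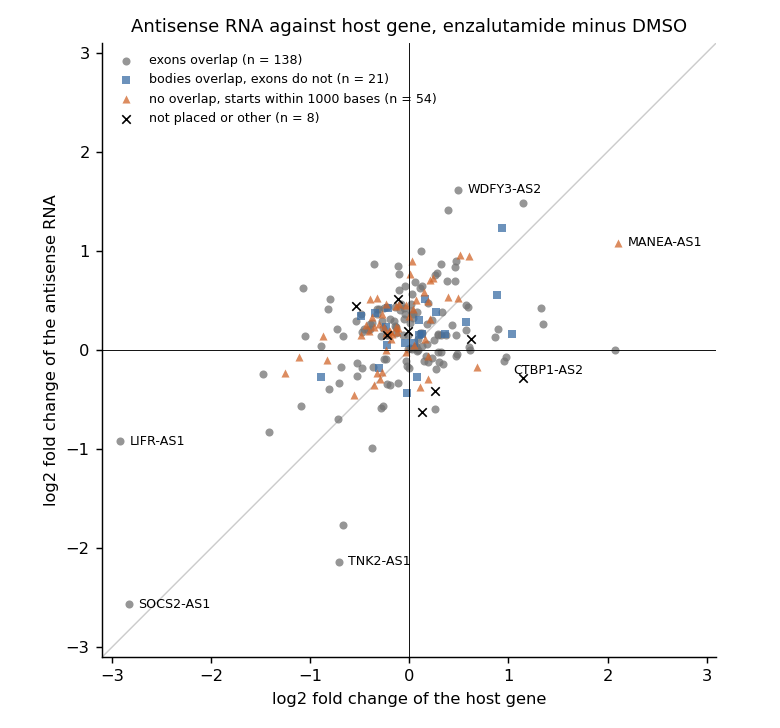
Log2 fold change with enzalutamide of the antisense RNA (y axis) against that of its host (x axis) for 221 pairs, with markers for their relative position in the annotation and a diagonal line where both are equal. More points lie above the diagonal (154) than below it, and SOCS2-AS1 lies close to it while LIFR-AS1 lies far above.

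The direction of a pair was also read by the position of its genes. Exons of 161 members overlapped exons of the host, 26 overlapped only in the gene body and 54 did not overlap but started within 1000 bases of the host start on the opposite strand. Spearman's rho between the fold changes was 0.25 in 138 tested pairs with shared exon bases, 0.40 in 21 with overlapping bodies only and 0.45 in 54 that start close together. It was 0.21 in 65 tested pairs whose RefSeq host start lay inside the promoter window of the antisense RNA. That set includes pairs with shared exon bases, and a higher rho for close starts was thus not seen by both definitions. Exons of some gene on the opposite strand, host or other, overlapped those of 182 members. The RNA was prepared with a kit that keeps strand, but whether the counting made use of strand is not known from the study, so for overlapping exons reads of an antisense RNA and of its partner might not have been told apart. In the 76 pairs without shared exon bases, 21 moved in the same direction and 17 in opposite directions. In the 54 of them that start close together, 15 moved in the same direction and 13 in opposite directions.

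Pairs with opposite calls are described next. They were picked by the largest difference of log2 fold change in these same libraries, so their ratio tests are descriptive. PRKAR2A-AS1 rose while PRKAR2A, a regulatory subunit of protein kinase A, fell. The antisense RNA lay between 8.01 and 11.2 CPM (median 9.43) and at 14.4, 13.3, 12.7, 13.8 and 14.7 CPM, and the host between 172 and 206 CPM (median 198) and at 116, 105, 107, 111 and 115 CPM. ARHGEF26-AS1 lay between 5.45 and 7.56 CPM (median 6.08) and at 14.4, 9.95, 10.4, 12.7 and 12 CPM, and ARHGEF26, a guanine nucleotide exchange factor, between 289 and 331 CPM (median 323) and at 251, 229, 247, 262 and 248 CPM. None of these 4 rows overlapped between the treatments, and the ratios of both pairs rose, by 1.32 and 1.22 on the log2 scale. RUSC1-AS1 had log2 fold changes of 0.42 for the antisense RNA and -0.82 for the host, and ASMTL-AS1 of 0.44 and -0.54. For the latter 2 the antisense libraries overlapped, and against the R1881 + DMSO libraries 71 to 75 alone ASMTL-AS1 had a log2 fold change of 0.34 (limma adjusted p = 0.088).

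In the reverse sense, SVIL-AS1 fell while SVIL, an actin-binding membrane protein, rose. SVIL-AS1 lay between 13.8 and 18.7 CPM (median 16.6) and at 12.3, 13.2, 12.9, 14.4 and 14.4 CPM (log2 fold change -0.28, SE 0.063, adjusted p = 5.20e-04), with overlap between the groups, and SVIL between 5.61 and 7.36 CPM (median 6.23) and at 13.9, 15.2, 14.4, 14.6 and 14.3 CPM (2.31-fold higher, without overlap). The name SVIL-AS1 could not be placed on a single gene of GENCODE v44. RefSeq has a promoter window for it at chr10:29409993-29410292 on the plus strand, opposite to SVIL, with the starts 224728 bases apart. CTBP1-AS2, which GENCODE v44 lists as CTBP1-DT and which overlaps exons of the transcriptional corepressor CTBP1, lay between 47.6 and 57.3 CPM (median 52.4) and at 47.5, 53.5, 45.8, 47.7 and 49.4 CPM (log2 fold change -0.11, adjusted p = 0.0403 by limma), while CTBP1 rose from between 32.4 and 49.5 CPM (median 37.7) to 66.1, 85.1, 74.7, 69.6 and 79.9 CPM. The call of CTBP1-AS2 was lost in 15 of 28 alternatives, whereas the log2 ratio of the pair fell by 1.06 without overlap between the treatments (exact permutation p = 0.000333).

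In BCDIN3D-AS1 the opposite call rested on the host. The antisense RNA of BCDIN3D, an RNA methyltransferase, lay between 1.53 and 2.57 CPM (median 2.18) and at 3.96, 4.28, 3.87, 4.58 and 4.12 CPM (log2 fold change 0.84), while BCDIN3D had a log2 fold change of -0.11 whose call was lost in 20 of 28 alternatives. Among the 47 named pairs the ratio was tested in each, and 27 had ratios that did not overlap between the treatments (with a pseudocount of 0.1 those of MANEA-AS1 and ID2-AS1 did). All pairs called in opposite directions by the named rule were among these 27. That rule had picked them by the difference of log2 fold change in the same libraries, so this separation followed largely from the selection.

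**Figure D5:**
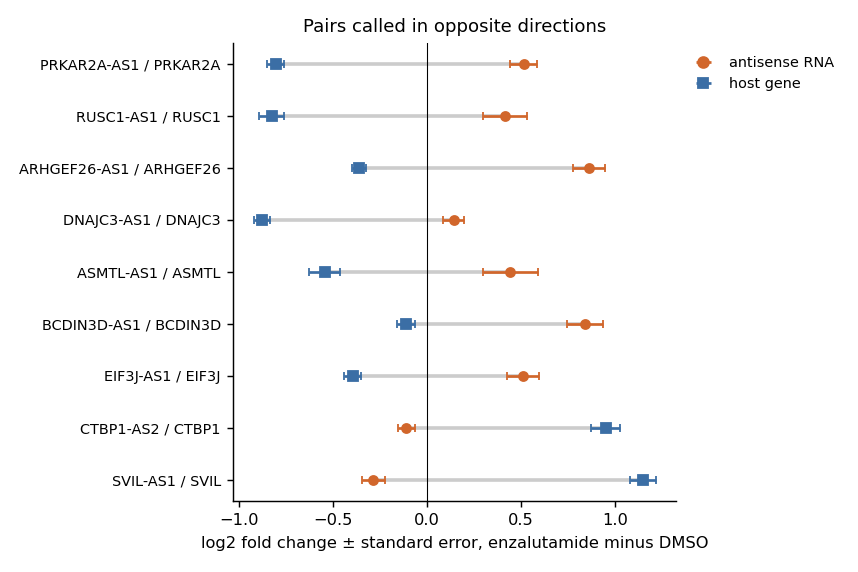
Log2 fold change with enzalutamide (x axis, points with standard error bars from the limma fit) of the antisense RNA and of the host for 9 of the pairs with opposite calls and the largest difference. Each pair has its antisense RNA and its host on opposite sides of 0, and CTBP1-AS2, DNAJC3-AS1 and the host BCDIN3D lie closest to 0.

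Pairs that start back to back gave each of these outcomes. For 67 members the RefSeq start of the host lay inside the promoter window of the antisense RNA, and of 65 such pairs tested 12 moved in the same direction, 20 in opposite directions (17 with the antisense RNA higher), and in 29 one row was called. Beside these stand 48.8% of all members called higher and 15.9% lower, and 30.6% and 39.7% of the hosts tested. Whether the counts of these 65 pairs depart from such rates was not tested. Windows of 4 of these pairs are shown because both RNAs start within one window and the outcomes differ. TRIM52-AS1 was chosen after its values were seen, as a head-to-head pair in which both rows fell, and the others belong to the named members. Letters run along the strand of the antisense RNA, and capitals mark the motifs listed above.
MANEA-AS1: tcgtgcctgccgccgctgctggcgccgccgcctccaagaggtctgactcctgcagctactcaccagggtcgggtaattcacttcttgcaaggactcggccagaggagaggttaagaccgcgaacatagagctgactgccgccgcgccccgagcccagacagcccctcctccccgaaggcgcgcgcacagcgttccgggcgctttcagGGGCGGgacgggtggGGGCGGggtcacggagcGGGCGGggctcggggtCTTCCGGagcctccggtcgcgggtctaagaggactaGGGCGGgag
TRIM52-AS1: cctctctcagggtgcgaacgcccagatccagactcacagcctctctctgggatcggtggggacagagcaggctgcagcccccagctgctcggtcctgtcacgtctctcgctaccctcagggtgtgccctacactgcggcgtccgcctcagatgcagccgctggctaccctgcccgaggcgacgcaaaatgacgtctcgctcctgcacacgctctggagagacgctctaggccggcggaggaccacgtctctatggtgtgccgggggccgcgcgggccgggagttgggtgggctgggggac
DNAJC3-AS1: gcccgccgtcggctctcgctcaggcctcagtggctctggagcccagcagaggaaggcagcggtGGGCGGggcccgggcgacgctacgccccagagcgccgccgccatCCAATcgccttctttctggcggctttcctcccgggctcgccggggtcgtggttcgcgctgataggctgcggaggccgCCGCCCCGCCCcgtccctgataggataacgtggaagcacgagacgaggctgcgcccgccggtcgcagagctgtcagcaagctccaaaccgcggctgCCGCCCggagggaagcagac
EIF3J-AS1: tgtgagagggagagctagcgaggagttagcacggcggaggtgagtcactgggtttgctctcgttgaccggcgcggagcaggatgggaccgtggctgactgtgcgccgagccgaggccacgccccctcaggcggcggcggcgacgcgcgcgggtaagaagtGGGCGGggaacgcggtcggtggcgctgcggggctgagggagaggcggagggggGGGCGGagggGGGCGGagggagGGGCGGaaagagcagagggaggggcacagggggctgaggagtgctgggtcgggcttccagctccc

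The window of MANEA-AS1 is chr6:95577402-95577701 on the minus strand, with the start of MANEA 84 bases away in RefSeq. MANEA encodes a mannosidase of the Golgi that trims glycans. It rose from between 81.5 and 102 CPM (median 93.5) to 412, 363, 403, 420.3 and 407 CPM, 4.32-fold in the mean. MANEA-AS1 lay between 0.377 and 1.06 CPM (median 0.644) and at 2.09, 1.63, 2.5, 1.66 and 2.16 CPM (2.89-fold, log2 fold change 1.08, adjusted p = 4.36e-07), with no overlap in either row. The log2 ratio fell by 1.03 (exact permutation p = 0.000333). With a pseudocount of 0.1 it fell by 0.67 and the treatments overlapped (exact permutation p = 0.00233). Its window holds 4 Sp1 boxes and 1 ETS motif.

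The window of TRIM52-AS1 is chr5:181260962-181261261 on the plus strand, with the host start 69 bases away and none of the 5 motifs. TRIM52-AS1 lay between 5.18 and 7.37 CPM (median 6.02) and at 4, 4.28, 4.59, 4.09 and 4.74 CPM, and TRIM52, a gene of the tripartite motif family, between 39.2 and 44.8 CPM (median 41.5) and at 27.6, 27.2, 27.7, 29.96 and 28 CPM. Both fell without overlap, by similar amounts (log2 fold changes -0.46 and -0.56).

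DNAJC3-AS1 and EIF3J-AS1 moved against their hosts. The windows are chr13:95676876-95677175 on the minus strand and chr15:44536874-44537173 on the minus strand, with host starts 214 and 224 bases away, and each holds 4 Sp1 boxes, with 1 CCAAT box in that of DNAJC3-AS1, where a pair of the Sp1 boxes overlap each other. DNAJC3, a co-chaperone of the endoplasmic reticulum, fell from between 129 and 153 CPM (median 140.2) to 81.3, 71.8, 71.1, 78.2 and 79.9 CPM (1.84-fold lower). DNAJC3-AS1 lay between 11.3 and 14.3 CPM (median 13.1) and at 15.3, 14.4, 14.5, 13.6 and 14.2 CPM, with overlap between the groups, and its small increase (log2 fold change 0.14, limma adjusted p = 0.0351) lost its call in 10 of 28 alternatives. EIF3J, a subunit of translation initiation factor 3, fell from between 119 and 139 CPM (median 132) to 100.4, 87.8, 103, 106 and 100.2 CPM, while EIF3J-AS1 rose from between 7.5 and 11.8 CPM (median 10.03) to 14.3, 13.3, 15.7, 15.6 and 13.4 CPM (log2 fold change 0.51, SE 0.086, adjusted p = 2.68e-05). In the EIF3J pair neither row overlapped, and the ratio rose by 0.90 in it and by 1.02 in the DNAJC3 pair (exact permutation p = 0.000333 in both).

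A list of antisense RNAs with a literature of their own was written from general knowledge, and 23 of its 36 names were members. Of these 12 were called higher, 3 lower and 8 were not called, which is 52.2% higher and 13% lower, beside 48.8% and 15.9% of all members and 29.8% and 32.7% of all genes. PSMA3-AS1 rose while PSMA3, a subunit of the proteasome, fell, with log2 fold changes of 0.37 and -0.35 and no overlap in either row. MCM3AP-AS1 and PAXIP1-AS1 showed the same arrangement, with 0.42 beside -0.25 and 0.33 beside -0.38. The second antisense RNA of PAXIP1, PAXIP1-AS2, had a log2 fold change of 0.27, and its call was lost without the 3 libraries that deviated together (0.19, limma adjusted p = 0.055) and against libraries 51 to 55 alone. The other known RNAs that rose without overlap between the groups were EPB41L4A-AS1 (0.37), LOXL1-AS1 (0.51), MAPKAPK5-AS1 (0.32), MNX1-AS1 (0.50) and ZEB1-AS1 (0.41), all on the log2 scale, besides WDFY3-AS2 and GAS6-AS1. ENTPD1-AS1 had a log2 fold change of 0.21, and this call was lost in 14 of 28 alternatives.

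The known antisense RNAs that fell were OIP5-AS1 and FGD5-AS1, given above, and TMPO-AS1. TMPO-AS1 is antisense to TMPO, which encodes lamina-associated polypeptides of the nuclear envelope. It lay between 3.59 and 5.78 CPM (median 4.19) with R1881 + DMSO and at 2.19, 2.05, 3.87, 2.11 and 3.1 CPM with enzalutamide (log2 fold change -0.70, SE 0.13, adjusted p = 1.34e-04), and the groups overlapped. TMPO lay between 119 and 158 CPM (median 137) and at 84.3, 71.2, 90.5, 90.8 and 80.9 CPM (log2 fold change -0.72), and the ratio of the pair differed by 0.028 (exact permutation p = 0.812). In bulk RNA, fewer cells that express such a gene and less RNA per cell cannot be told apart. CBR3-AS1 did not pass (log2 fold change 0.095, limma adjusted p = 0.106), nor did ELFN1-AS1 (-0.28), FOXP4-AS1 (0.067), THAP9-AS1 (0.034), TP73-AS1 (-0.068), USP2-AS1 (0.026), VPS9D1-AS1 (-0.12) and ZNF667-AS1. CBR3-AS1 passed in 4 of 28 alternatives (log2 fold changes 0.13 to 0.19, lowest adjusted p = 0.00245 by limma), among them without enzalutamide replicate 3. THAP9-AS1 passed in 1, with library totals set to 1000000 (0.13, limma adjusted p = 0.00775), and ELFN1-AS1 in 1, without enzalutamide replicate 2 (-0.41, limma adjusted p = 0.034).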

How the data were processed

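The authors demultiplexed reads of a stranded poly(A) library (TruSeq, single-end) with bcl2fastq 2.17, mapped them to GRCh38 with STAR and counted them with featureCounts of Subread. The deposited signal is called CPM. The annotation, use of strand, tool versions, gene filter and library-size rule were not stated. Column sums lay between 985580 and 1078567, and 100% of the values came out as a whole number of reads within 0.01 reads, so that the reads could be recovered. No column lacked a sample (0 such columns). The methods text swaps the library numbers of the treatments relative to the labels, which were followed.

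Treatments were compared with limma 3.58.1 in R 4.3.3 (mean-variance trend, log2(CPM + 0.5), mean of at least 0.5 CPM, Benjamini-Hochberg adjustment over all genes tested, threshold 0.05). Recovered reads were also tested with edgeR 4.0.16 and DESeq2 1.42.0. The log2 ratio of a pair was compared by a two-sided exact permutation test, whose smallest p is 0.000333, without adjustment over the 47 pairs. For pairs named by fold changes in these same libraries, this test is descriptive. On simulated reads for this comparison over 17046 genes, limma called 98% of 200 genes changed 2-fold, 93.1% of the 58 with a mean under 5 CPM, and 9 of 16846 unchanged genes. The simulation used independent libraries and a fixed spread between replicates that was not taken from these data. It also changed few genes, whereas 62.5% were called in the data, so its shares need not hold here. Counting error bears most on the 140 members with a mean under 5 CPM.

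Members were placed in GENCODE v44, 188 by symbol and 57 by an older symbol, with a position relative to the host for 242. Promoter windows of 200 members are from RefSeq. The members and lists were chosen with earlier results of these data known. Named are the 10 highest and 10 lowest members called, the 10 with the highest mean CPM, up to 10 pairs called in opposite directions by largest difference, the known antisense RNAs, the rows next to the limit of 1 CPM, members that reach it through 1 group (if 10 or fewer), their hosts, and marker genes, of which some are not reported here. Alternatives were pseudocounts of 0.1 and 1, other filters and scalings, the count tests, replicate blocks, the R1881 + DMSO series taken singly, and omission of single libraries.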

Additional observations from a re-analysis of the deposited data

Results flagged for a closer look

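Both treatments of the 58 named members, 116 groups, were searched for a library that stands off from its group. A library was singled out where its distance to the nearest other library was large relative to the range of the group, by Dixon's limit. Chance singles out about 1 in 20 groups, or 5.8 of 116, and 5 were found. In CBR3-AS1, enzalutamide replicate 3 was low at 20.9 CPM, with the next library at 22.9 CPM. In ID2-AS1, enzalutamide replicate 1 was high at 2.09 CPM, with the next at 1.35 CPM. In MAPKAPK5-AS1, R1881 + DMSO replicate 4 was low at 17.2 CPM, with the next at 18.6 CPM. In USP2-AS1, R1881 + DMSO replicate 2 was high at 1.83 CPM, with the next at 1.28 CPM. In VPS9D1-AS1, R1881 + DMSO replicate 6 was high at 26.0 CPM, with the next at 19.9 CPM, and this is one of the 3 libraries that deviated together across genes.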

How the results depend on the processing

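Omitting single libraries gave 147 to 159 members called (163 with all libraries), 112 to 123 higher and 32 to 38 lower, with 49 to 59 pairs in the same direction and 39 to 49 in opposite directions. Of the members called in these fits 75.5% to 78.2% were higher, beside 47.3% to 47.9% of all genes called. Adding a limit of 2-fold left 12 members on the log2(CPM + 0.5) scale, 6 higher and 6 lower, and by the ratio of group means, chosen after seeing the data, 21 members, 12 higher and 9 lower. The smaller set of pairs without shared exon bases had 21 in the same and 17 in opposite directions. The other alternatives kept these counts within 1.5 times. Of the 163 members, 155 were also called by edgeR (of 166) and 155 by DESeq2 (of 157), all in the same direction. The median log2 fold change of the members ranged from 0.17 to 0.27, while that of all genes moved from -0.01 to 0.08 with library totals set to 1000000.

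The replicate numbers of the titles do not pair the samples, since same-numbered samples correlated between -0.07 and 0.07, and last digits of the library numbers between -0.42 and 0.67. With the replicate block by title number 145 members were called, and by last digit 157. Of these, 76.6% and 76.4% were higher, beside 47.5% of all genes called with either block.

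Log2 fold changes that turned direction all belonged to genes not called in the main result, and the cause was not tested. With library totals set to 1000000, TP73-AS1 was at 0.024, ZNF667-AS1 at 0.068 (0.019 by edgeR), ID2 at 0.0092 and VPS9D1 at 0.039. With the title block, USP2-AS1 was at -0.016, MNX1 at -0.048 and VPS9D1 at 0.012. Against libraries 71 to 75, ELFN1 was at -0.058, FOXP4 at -0.013, MNX1 at -0.10 and VPS9D1 at 0.015, and against 51 to 55 WAC-AS1 was at -0.059, WAC at -0.040 and THAP9 at -0.10. Without the 3 libraries that deviated together, an alternative chosen after seeing the data, USP2-AS1 was at -0.0077 and WAC at -0.013. Omitting single libraries, USP2-AS1 ranged from -0.030 to 0.079, WAC-AS1 from -0.0091 to 0.044, ELFN1 from -0.011 to 0.21, FOXP4 from -0.0055 to 0.099, VPS9D1 from -0.096 to 0.0070 and WAC from -0.011 to 0.019.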
